A study of Mus musculus with 15 samples.

Results

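Connexins are the subunits of gap junctions, and 5 connexin genes were followed here across 5 sorted populations of the mouse mammary epithelium. The genes were Gja1, Gjb1, Gjb2, Gjb5 and Gjb6, which encode Cx43, Cx32, Cx26, a further beta connexin and Cx30 in this order. Each gene was read from the probe set that mapped to its symbol alone and had the highest mean log2 intensity over the 15 arrays. All 5 members had a probe set that passed the filter on dim signals, among 12143 genes tested, out of 18193 that were read by at least 1 probe set mapped to no other symbol. The probe sets were chosen by their mean log2 intensity over all arrays, not by any difference between populations, but the genes themselves were picked with earlier results of these arrays known, so the adjusted p-values below describe these genes and are not independent evidence for the choice.

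All mice were C57BL/6 females, and each population had 3 arrays. Alveolar luminal cells (AL) were lineage-negative cells bearing yellow fluorescent protein from adult Wap-Cre;R26Y females at midgestation. Cells with this mark from adult virgin Wap-Cre;R26Y females were termed alveolar luminal stem/progenitor cells (ALP). Mammary stem cell enriched basal cells (MaSC, CD24+ CD29 hi), luminal progenitors (LP, CD24 hi CD29+ CD61+) and mature luminal cells (ML, the CD61- counterpart) were sorted from adult virgin wild-type females. In Wap-Cre;R26Y mice the whey acidic protein promoter drives Cre, which switches on a conditional reporter, so the mark stays on in descendants of any cell that once made Cre, and the marked cells were not gated on CD29. Pregnancy stage, genotype and gating therefore differ together between AL and the wild-type populations and cannot be told apart. AL and ALP share genotype and mark and differ in pregnancy. The ALP arrays also have later sample numbers, so a batch confined to ALP cannot be told apart from pregnancy in that comparison. MaSC, LP and ML came from 3 cell suspensions, and no source used here says whether each AL or ALP array stands for its own animal. The p-values then cover the variation among these arrays alone, which may be technical.

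Connexins assemble into channels that dock between neighbouring cells and pass ions and small metabolites. In the mammary gland Cx43 is known chiefly from the contractile basal layer, whereas Cx26, Cx30 and Cx32 are known from the luminal cells of the pregnant and lactating gland. The array values are normalised intensities in arbitrary units, which allow a gene to be compared between populations but not 1 gene with another. Intensities under the median of an array, which ran from 137 to 210 (ALP replicate 3 highest), are called dim here, and no detection calls were used.

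Markers were checked against the labels, and they followed them in part. The summed intensity of 5 milk protein genes was 49460 to 57665 in AL, against 9481 to 18483 in the other 4 populations. Csn2, Csn1s1 and Wap were higher in every AL array than in any other array. Csn3 made up most of the sum outside AL, at 16854 to 17323 in LP, and was 15291 to 17092 in AL. Lalba overlapped between AL (220 to 666) and ALP (168 to 370). The sum of 8 basal markers was 21560 to 25923 in AL, 8020 to 36041 in ALP, 74732 to 80020 in MaSC, 2095 to 3104 in LP, with 1256 to 3413 in ML. The sum of mature luminal markers was highest in ML (30982 to 33855), but 2 MaSC arrays (19487 and 13961) were above all LP arrays (8401 to 13106). Adipocyte markers summed to 4694 to 5276 in AL, 6159 to 14246 in ALP, 172 to 435 in MaSC, 482 to 1099 in LP, with 86.4 to 103 in ML. The higher sums of AL and ALP rested on Fabp4, which read 4633 to 5226 in AL and 6074.5 to 13863.5 in ALP. Adipoq was 37.9 to 49.2 in AL and 21.4 to 49.6 in MaSC, and reached 308 in ALP replicate 3. Cidec was 11.9 to 20.2 in AL and 22.6 to 32.3 in MaSC. ALP replicate 3 stood apart from its replicates. It held the highest ALP value for basal cells, and its leukocyte sum was 20872, against 1778 and 2365 in the other ALP arrays, with Ptprc at 2795. The gate set out in the methods was meant to remove cells bearing CD31, CD45 or TER119, which mark endothelium, leukocytes and red cells. For the connexins and pannexins, ALP calls that changed without this array are given beside the result. In bulk samples, fewer cells of a type and less RNA per cell cannot be told apart.

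**Figure D1:**
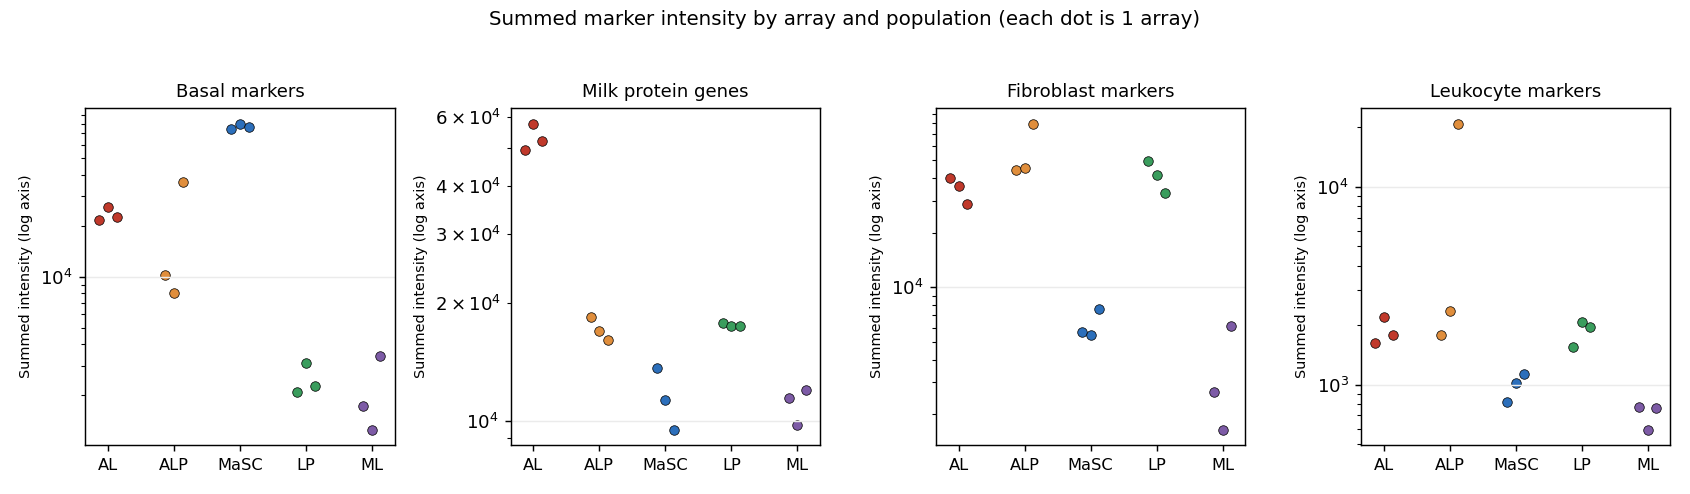
Summed intensity (log axis) of basal markers, milk protein genes, fibroblast markers and leukocyte markers in each of the 15 arrays, with the populations on the horizontal axis and 1 dot per array. ALP replicate 3 reached 20872 for leukocyte markers, and by the medians the fibroblast sums were highest in ALP and lowest in ML, with LP overlapping ALP and MaSC overlapping ML.

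The sequences before the starts of 4 members are shown because these fall into pairs that were highest in the same population. Gjb2 and Gjb6, both highest in AL, lie close together on chromosome 14 with no protein-coding gene between them in the RefSeq annotation, and Gja1 and Gjb5, both highest in MaSC, lie on chromosomes 10 and 4. The 250 bases upstream of each annotated start (RefSeq, GRCm38.p6) were searched on both strands for the RUNX motif TGTGGT, the STAT motif TTCNNNGAA, the ETS motif GGAAGT, the AP-1 motif TGANTCA and the GC box GGGCGG, and matches are in capitals.
Gjb2, minus strand, chr14:57104703-57104952: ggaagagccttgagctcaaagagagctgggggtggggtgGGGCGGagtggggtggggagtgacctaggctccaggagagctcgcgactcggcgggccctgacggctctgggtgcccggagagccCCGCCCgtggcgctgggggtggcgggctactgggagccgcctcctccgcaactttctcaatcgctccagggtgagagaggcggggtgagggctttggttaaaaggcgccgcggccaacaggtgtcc
Gjb6, minus strand, chr14:57133612-57133861: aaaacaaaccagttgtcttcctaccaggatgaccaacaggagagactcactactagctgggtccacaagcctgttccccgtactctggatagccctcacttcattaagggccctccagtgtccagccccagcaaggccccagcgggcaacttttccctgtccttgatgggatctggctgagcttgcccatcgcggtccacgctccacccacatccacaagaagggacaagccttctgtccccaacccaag
Gja1, plus strand, chr10:56377050-56377299: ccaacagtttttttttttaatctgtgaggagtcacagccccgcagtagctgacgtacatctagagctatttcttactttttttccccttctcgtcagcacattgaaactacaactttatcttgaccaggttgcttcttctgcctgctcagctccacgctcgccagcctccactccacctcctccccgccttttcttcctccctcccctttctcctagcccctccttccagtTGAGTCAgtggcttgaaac
Gjb5, minus strand, chr4:127358165-127358414: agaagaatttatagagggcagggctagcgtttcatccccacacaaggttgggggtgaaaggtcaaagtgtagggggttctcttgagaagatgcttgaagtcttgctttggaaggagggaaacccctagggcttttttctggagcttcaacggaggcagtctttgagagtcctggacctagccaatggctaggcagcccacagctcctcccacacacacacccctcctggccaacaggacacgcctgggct
Gjb2 held 2 GC boxes, starting 211 and 126 bases before the start, and a GC box was present in 32.7% of all 32851 windows of this length. Gja1 held 1 AP-1 match, 19 bases before the start, a motif found in 6.75% of windows. The windows of Gjb6 and Gjb5 held none of the 5 motifs, and no window of these 4 genes held the RUNX motif (14.0% of all windows), the STAT motif (7.02%) or the ETS motif (19.7%). Gjb1 has 4 annotated starts, of which 1 window held a RUNX match and another held 1 ETS match and 3 GC boxes.

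Gjb6 had the largest log2 differences of the 5 connexins, and it exceeded the array median in all AL arrays and in 1 other. Its intensities were 2860, 3463 and 2486 in AL, against 35.9, 35.5 and 48.7 in ALP, 40.8, 65.6 and 159 in MaSC, 5.92, 29.1 and 23.7 in LP, with 24.8, 14.3 and 13.2 in ML. Every AL array stood far above every array of the virgin populations, where MaSC replicate 3 came nearest. AL averaged 2936 ± 493, against 40.03 ± 7.52 in ALP (SD, n = 3 each), a difference of 6.20 on the log2 scale (SE 0.58) or 73.5-fold, with an adjusted p of 1.45e-05 (limma, Benjamini-Hochberg over 12143 genes). The AL level was 38.7-fold above MaSC, 182-fold above LP and 174-fold above ML, with adjusted p-values in limma from 1.36e-06 to 1.71e-05.

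Of the 12 virgin values of Gjb6, 11 lay under the array median, all but MaSC replicate 3, so the folds depend on the treatment of low signals. With 16 added to every intensity the AL level was 86.1-fold above LP and 88.5-fold above ML, and without LP replicate 1, the lowest array, AL was 111-fold above LP. Among virgin cells Gjb6 was 4.70-fold higher in MaSC than in LP (adjusted p = 0.00969) and 4.49-fold higher in MaSC than in ML (adjusted p = 0.00695). These folds were 2.74 and 2.82 with 16 added, and MaSC against LP was 2.86-fold without LP replicate 1. MaSC against LP did not pass in a fit of these 6 arrays alone (adjusted p = 0.0743) or by the methods' t-test (unadjusted p = 0.0727, adjusted p = 0.150), and MaSC against ML did not pass by the adjusted form of that test (0.0596). The 4 virgin populations followed AL in the order MaSC, ALP, ML and LP, and no neighbouring pair of these 4 passed in the fit of all arrays (adjusted p from 0.111 to 0.935), while ALP against ML did in a fit of its arrays alone (0.0331).

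Gjb2, the gene of Cx26, formed 3 steps, with AL on top, LP and ALP in the middle, and MaSC and ML at the bottom. Its intensities were 9701, 9724 and 9595 in AL, against 5693, 4883 and 3204 in ALP, 1384, 855 and 842 in MaSC, 4897, 5047 and 4858 in LP, with 719, 628 and 1242 in ML. AL and LP arrays were tightly grouped, while the ALP arrays spread around the LP level and MaSC and ML arrays overlapped each other. All 15 arrays exceeded their median, so Gjb2 was measured well within the bright range in each population.

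AL averaged 9673 ± 68.8 for Gjb2, against 4593 ± 1269 in ALP and 4934 ± 99.7 in LP (SD, n = 3 each). The difference was 2.17-fold against ALP (log2 1.12, SE 0.27, adjusted p = 0.00700) and 1.96-fold against LP (log2 0.97, SE 0.27, adjusted p = 0.0125) in limma. AL exceeded MaSC 9.68-fold and ML 11.7-fold. ALP exceeded ML 5.42-fold, and it was above MaSC by 2.16 on the log2 scale (adjusted p = 0.000176 in limma, 0.0656 by the methods' t-test). LP exceeded ML 5.98-fold, and MaSC was 4.94-fold below LP (adjusted p = 9.04e-05). ALP and LP were not separated by the test (log2 -0.14 for ALP minus LP, 95% interval -0.74 to 0.45, adjusted p = 0.784), nor were MaSC and ML (adjusted p = 0.400).

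The lowest ALP value of Gjb2, 3204, came from replicate 3, the array with leukocyte, endothelial and basal markers. Without it AL remained above ALP by 0.88 on the log2 scale (adjusted p = 0.0243), and ALP minus LP was 0.10 with an adjusted p of 0.879. The sum of the luminal progenitor markers Itgb3, Kit, Cd14, Elf5 and Aldh1a3 ran from 26705 to 27473 in AL, 31183 to 34844 in ALP, 8836 to 18973 in MaSC, 33054 to 36450 in LP, with 11221 to 14360 in ML. Gjb2 and this sum were thus both low in MaSC and ML, but the sum was lower in AL than in LP where Gjb2 was higher. The single markers were split between AL and LP. Itgb3, Cd14 and Aldh1a3 were lower in AL, and Kit overlapped (4170 to 4439.5 in AL, 3706.5 to 4265 in LP). Elf5 was higher in AL (9177 to 11066) than in LP (4212 to 5419), as Gjb2 was. The MaSC array with the highest Gjb2, replicate 1, also had the highest luminal progenitor sum of the MaSC arrays, and the part of luminal cells in that value was not tested.

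Gjb1, the gene of Cx32, was dim in these cells and highest in LP. Its intensities were 27.2, 30.8 and 14.3 in AL, against 187, 90.9 and 40.3 in ALP, 40.9, 3.62 and 41.5 in MaSC, 162, 160 and 337 in LP, with 35.7, 28.5 and 48.6 in ML. All LP arrays lay above all AL, MaSC and ML arrays, and ALP spread between them. Only 2 LP arrays and 1 ALP array exceeded the array median.

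Gjb1 was 8.995-fold lower in AL than in LP (log2 -3.17, SE 0.84, adjusted p = 0.00959), and MaSC was 11.2-fold below LP (adjusted p = 0.00661). With 16 added these differences were 5.65-fold and 5.56-fold. Without MaSC replicate 2, the array at 3.62, MaSC was 4.997-fold below LP, and without MaSC replicate 3 it was 16.9-fold below. MaSC against LP did not pass by the methods' t-test after adjustment (adjusted p = 0.109). LP exceeded ML 5.61-fold (adjusted p = 0.0285), a call lost without LP replicate 3 (0.0962), ML replicate 1 (0.0664) or ML replicate 2 (0.0828).

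AL was 3.85-fold below ALP for Gjb1 and did not pass (adjusted p = 0.0859), although every AL array lay under every ALP array. The difference passed without ALP replicate 3 (adjusted p = 0.0448) and with 16 added (0.0365). ALP against MaSC (adjusted p = 0.0514) passed without ALP replicate 3 as well (0.0303). A dimmer probe set of the same gene, which did not pass the filter, read 97.8, 45.1 and 16.2 in ALP and 85.9, 52.0 and 119 in LP, against 3.82 to 25.3 on the arrays of the other populations.

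**Figure D2:**
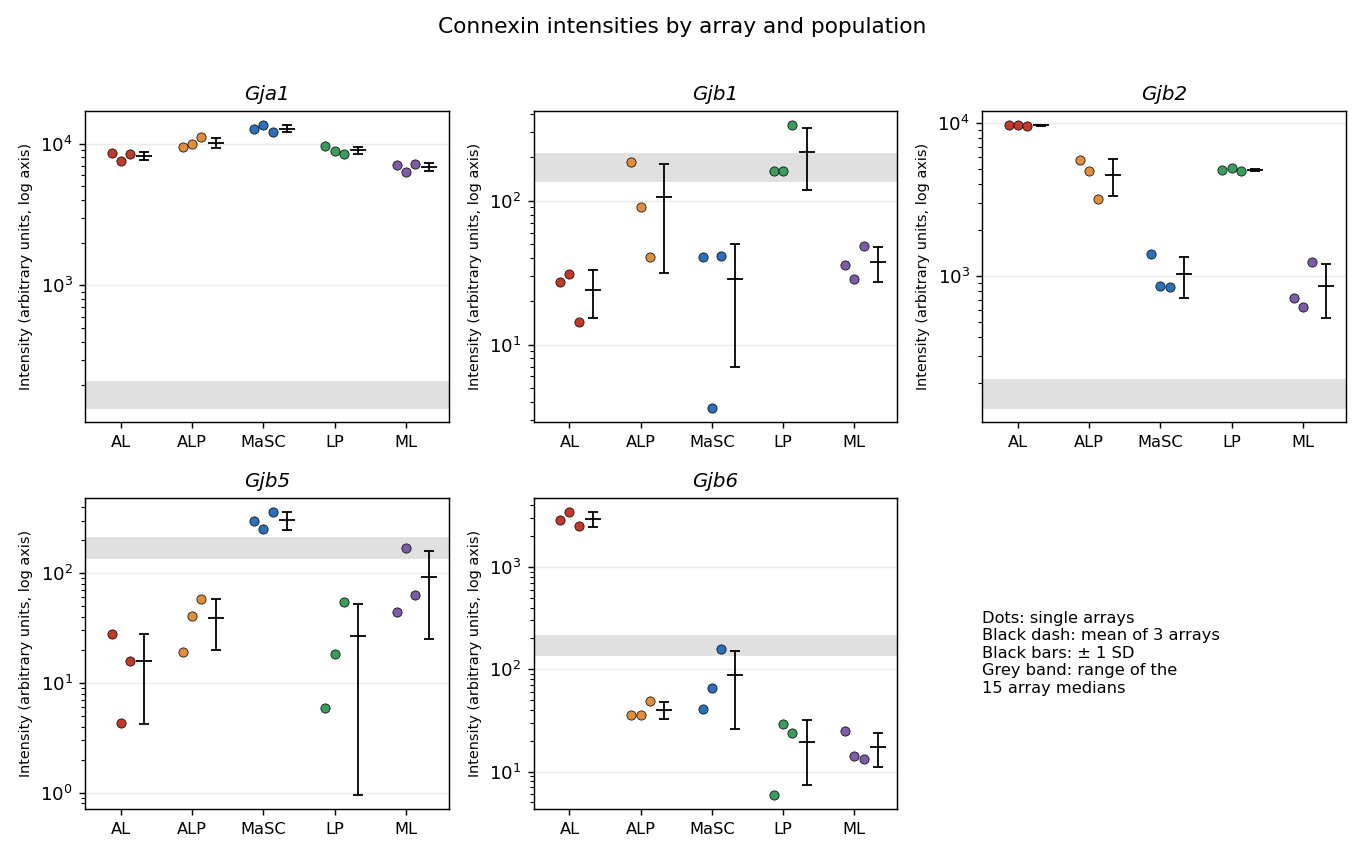
Intensity (arbitrary units, log axis) of the 5 connexins in each array, with 1 dot per array, the mean and SD of 3 arrays beside the dots, and the grey band giving the range of array medians. Gjb6 was at 2486 or more in AL and at 159 or less elsewhere, Gjb2 fell into 3 levels, Gjb5 exceeded the band in each MaSC array, and Gja1 stood far above the band in every population.

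Gja1, the gene of Cx43, was bright in each population and differed by small factors. Its intensities were 8551, 7572 and 8485 in AL, against 9414, 9965 and 11069 in ALP, 12642, 13576 and 12111 in MaSC, 9584, 8907 and 8487 in LP, with 7061, 6350 and 7235 in ML. Every MaSC array was above every other array and every ML array below, and AL, LP and ALP lay between, with LP overlapping both AL and ALP. MaSC averaged 12776 ± 742, against 6882 ± 469 in ML (SD, n = 3 each), a ratio of 1.86 (log2 0.89, SE 0.09, adjusted p = 1.43e-05 in limma).

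AL was 1.56-fold below MaSC for Gja1 (adjusted p = 0.000118), and MaSC was 1.42-fold above LP (adjusted p = 0.00125). ALP was 1.26-fold below MaSC (adjusted p = 0.0145), a call lost without MaSC replicate 2 (0.0531). Among the luminal populations ALP exceeded ML 1.47-fold and LP exceeded ML 1.31-fold. AL was 1.24-fold below ALP (adjusted p = 0.0199) and 1.19-fold above ML (adjusted p = 0.0352). AL against ALP lost its call without AL replicate 2 (0.0840) or ALP replicate 3 (0.0671), and AL against ML without AL replicate 1 (0.108), AL replicate 3 (0.105), ML replicate 1 (0.0561) or ML replicate 2 (0.132). In a fit of the 6 arrays alone neither passed (adjusted p = 0.0770 for AL against ALP and 0.0573 for AL against ML), nor did they by the methods' t-test after adjustment (0.0806 and 0.0610), and AL against ML also missed with no filter (0.0681). AL and LP were not separated by the test (adjusted p = 0.259), nor were ALP and LP (adjusted p = 0.257).

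The differences of Gja1 among luminal populations were of the size by which array medians differed. Centring the arrays on their medians moved the median of all genes by 0.27 for AL minus ALP, -0.14 for AL minus ML, -0.41 for ALP minus ML and -0.24 for LP minus ML on the log2 scale. Gja1 then differed by -0.03, 0.12, 0.15 and 0.15 in these comparisons, and none of them passed (adjusted p from 0.235 to 0.814). MaSC stayed above each other population under every setting run, although ALP against MaSC no longer passed in a fit of these 6 arrays alone (adjusted p = 0.123) or with the methods' t-test after Benjamini-Hochberg adjustment (adjusted p = 0.111).

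Gja1 was read by 6 probe sets, which placed MaSC on top without exception. On the 5 bright ones and the dim one together, MaSC was 1.86-fold to 2.65-fold above ML and 1.42-fold to 2.87-fold above LP, and all 6 passed in both comparisons, with adjustment over the 22143 probe sets that passed the filter. The widest differences came from the dim probe set, which read 138, 123 and 141 in AL, against 134, 170 and 154 in ALP, 222, 317 and 420 in MaSC, 109, 104 and 110 in LP, with 113, 114 and 123 in ML. On this probe set MaSC stood above all other arrays, the luminal populations lay close together, and ML was not below LP. Of the 6 probe sets, 5 placed LP above ML and passed, and the dim one had log2 -0.12 without passing (adjusted p = 0.623). The names of 4 bright probe sets end in _x_at, which marks probes that can match other transcripts.

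**Figure D3:**
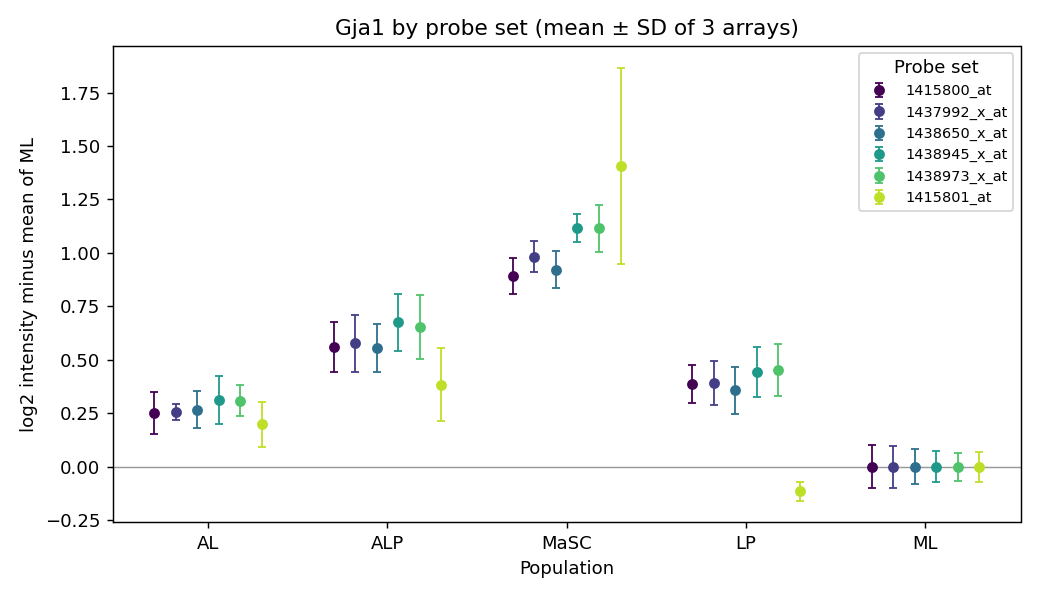
Log2 intensity of each of the 6 Gja1 probe sets relative to its own mean in ML (vertical axis) by population, as mean and SD of 3 arrays. MaSC was highest on every probe set, by 0.89 to 1.41 over ML, and the dimmest probe set placed LP at -0.12.

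Fibroblasts also make Cx43, so their markers are given beside Gja1. The sum of 7 fibroblast markers was 28844 to 40050 in AL, 44499 to 79682 in ALP, 5488 to 7617 in MaSC, 32951 to 49372 in LP, with 1643 to 6122 in ML. Among AL, ALP, LP and ML the order of this sum (ALP, LP, AL, ML by the medians) was also the order of Gja1, and the part of fibroblast RNA in those differences was not tested. MaSC had the highest Gja1 with a fibroblast sum below that of AL, ALP and LP.

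Gjb5 exceeded the array median in all MaSC arrays and in 1 further array, from ML. Its intensities were 27.8, 4.33 and 15.7 in AL, against 19.1, 40.8 and 57.5 in ALP, 297, 251 and 361 in MaSC, 5.94, 18.4 and 55.0 in LP, with 44.5, 168 and 63.1 in ML. The MaSC arrays lay above all others, ML replicate 2 came nearest, and the AL, ALP and LP arrays overlapped. Gjb5 encodes a beta connexin known from stratified epithelia.

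AL was 24.2-fold below MaSC for Gjb5 (log2 -4.60, SE 0.84, adjusted p = 0.000637), and ALP was 8.43-fold below MaSC (adjusted p = 0.0140, or 0.0672 by the methods' t-test). MaSC was 16.5-fold above LP (adjusted p = 0.00282). With 16 added, MaSC was 10.4-fold above AL and 8.38-fold above LP, and without AL replicate 2 it was 14.3-fold above AL. MaSC against LP was 9.42-fold when LP replicate 1 was left out and 28.7-fold when LP replicate 3 was. The 3.85-fold difference between MaSC and ML did not pass (adjusted p = 0.0642) although the arrays did not overlap, and it passed with 16 added (3.29-fold, adjusted p = 0.00961).

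AL was 6.30-fold below ML for Gjb5 (adjusted p = 0.0190), and this call was lost without AL replicate 2 (3.73-fold, adjusted p = 0.0857) or ML replicate 2 (4.29-fold, 0.0809). The difference was 3.15-fold with 16 added (adjusted p = 0.0133), and it did not pass by the methods' t-test (adjusted p = 0.0851). AL arrays held basal markers at 21560 to 25923, above LP and ML, and the Gjb5 values of AL and LP overlapped. In ML the array with the highest Gjb5, replicate 2, had the lowest basal sum of the population, 1256. The part of basal cells in the Gjb5 values was not tested.

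Read by comparison, members passed in both directions between AL and each virgin population in the fit of all arrays. The calls of Gja1 against ALP and ML and of Gjb5 against ML were lost under some settings, as given above. Against ALP, 2 members rose (Gjb2, Gjb6) and 1 fell (Gja1) of 5, where 39.9% of all genes passed, 18.7% higher and 21.2% lower. Against MaSC, Gjb2 and Gjb6 rose and Gja1 and Gjb5 fell, where 59.4% of all genes passed (31.3% higher, 28.1% lower). Against LP, Gjb2 and Gjb6 rose and Gjb1 fell, where 45.5% passed (21.3% higher, 24.2% lower). Against ML, 3 rose (Gja1, Gjb2, Gjb6) and Gjb5 fell, where 53.5% passed (28.7% higher, 24.8% lower). With backgrounds this high, 3 or 4 of 5 members is not a result about the connexins as a family. The median log2 difference of the 5 members was -0.31, 0.32, -0.13 and 0.25 in these 4 comparisons, beside medians over all genes of -0.02, 0.05, -0.03 and 0.03.

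Among virgin populations all 5 members passed between MaSC and LP, where 38.9% of all genes did (15.8% higher, 23.1% lower). Gja1, Gjb5 and Gjb6 were higher in MaSC, and Gjb1 and Gjb2 lower. Between MaSC and ML 2 members passed, Gja1 and Gjb6, both higher in MaSC (59.5% of all genes passed, 27.1% higher and 32.4% lower). Between LP and ML 3 passed, Gja1, Gjb1 and Gjb2, all higher in LP (49% of all genes passed, 27.3% higher and 21.7% lower). ALP differed from MaSC in 3 members, Gjb2 higher and Gja1 and Gjb5 lower (38.4% of all genes passed, 21.7% higher and 16.7% lower), and from ML in 2, Gja1 and Gjb2, both higher (36.7% passed, 21.1% higher and 15.6% lower). No member passed in limma between ALP and LP, where 7.54% of all genes did (3.58% higher, 3.95% lower), and at an unadjusted threshold of 0.05 the count was 1, Gjb6. Without ALP replicate 3 the counts were 3 against AL, 4 against MaSC, 2 against ML and 0 against LP. Of 12143 genes, 4937, 4365, 4987 and 482 passed in that fit, in the same order. The 3 against AL were not the same genes, since Gjb1 then passed (adjusted p = 0.0448 in limma) and Gja1 did not (0.0671).

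The split of all genes into higher and lower depended on the scaling of the arrays. Among genes that passed, the share higher in the first population was 46.9% for AL against ALP, and 73.9% with arrays centred on their medians. Without and with centring it was 46.9% and 60.1% for AL against LP, 53.7% and 41.0% for AL against ML, 56.6% and 37.3% for ALP against MaSC, 47.5% and 28.4% for ALP against LP, 57.5% and 18.7% for ALP against ML, 45.6% and 27.9% for MaSC against ML, and 55.7% and 30.3% for LP against ML. Quantile normalisation gave 59.9% for AL against ALP, 37.2% for ALP against LP, 37.1% for ALP against ML and 45.6% for LP against ML. Of the 50 member differences, none turned sign under median centring or quantile normalisation, and 4 lost and 1 gained a call under centring (Gja1 as above, and Gjb5 for LP against ML with an adjusted p of 0.0297).

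**Figure D4:**
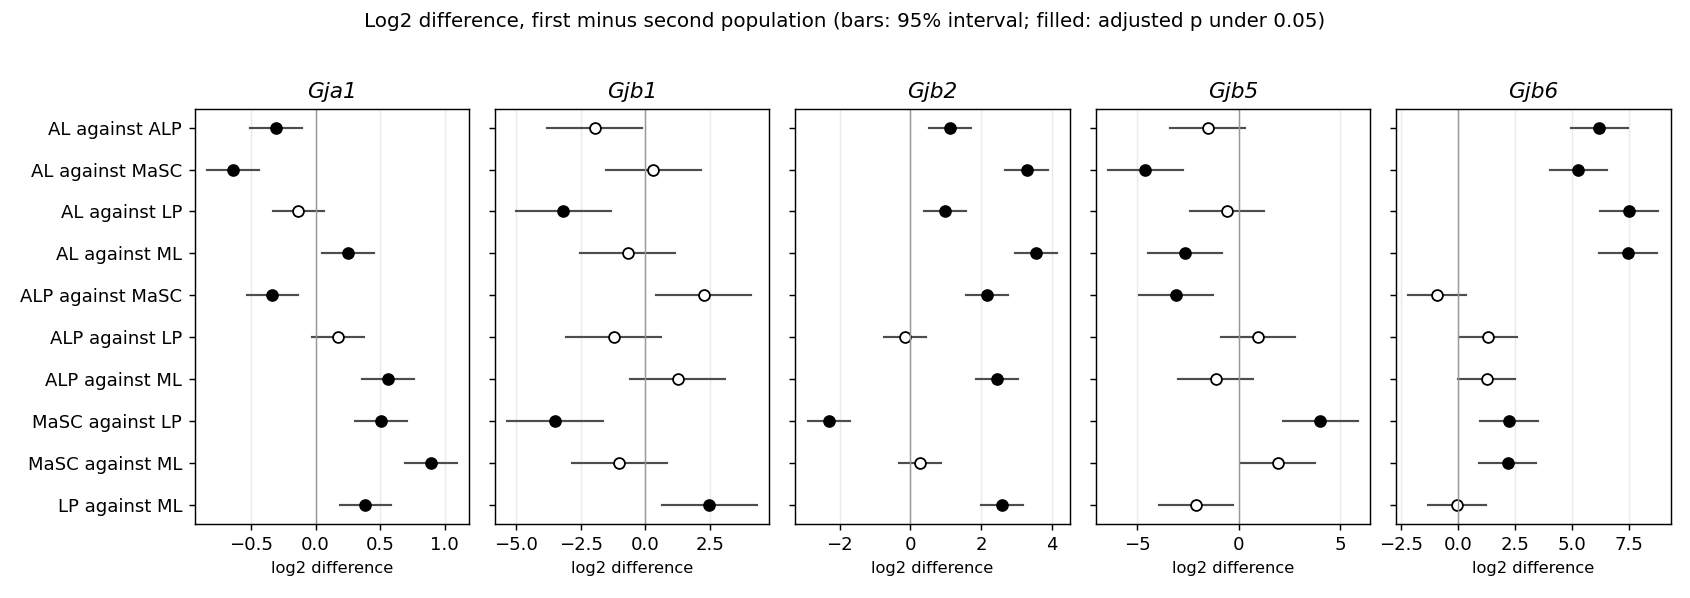
Fitted log2 difference (horizontal axis, first minus second population) of each connexin in the 10 comparisons (rows), with 95% intervals and filled points for an adjusted p under 0.05. Gjb6 differed by 5.27 to 7.51 between AL and the virgin populations, and no point is filled for ALP against LP.

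The remaining connexins were mostly dim. Of 15 further connexin genes, 9 had a probe set of their own, and only Gjc1, which encodes Cx45, passed the filter. Gjc1 read 124, 296 and 267 in AL, against 317, 801 and 2216 in ALP, 960, 1144 and 1394 in MaSC, 233, 289 and 141 in LP, with 16.3, 22.3 and 47.7 in ML. On this probe set, the brighter one of the gene, MaSC and ALP arrays were above all AL, LP and ML arrays, and ML was below all others. The ALP arrays overlapped those of MaSC, with replicate 3 highest. ALP exceeded ML 31.9-fold (adjusted p = 0.000115 in limma), while ALP against LP did not pass (adjusted p = 0.0778). AL was 5.38-fold below MaSC (adjusted p = 0.00571) and 8.28-fold above ML (adjusted p = 0.00156), and MaSC was 44.6-fold above ML (adjusted p = 3.03e-05). All ML values of Gjc1 lay under the array median, so the folds over ML depend on the treatment of low signals. On the dimmer probe set, which also passed the filter, MaSC read 147 to 186, against 22.3 to 23.3 in ML, a narrower gap. There ALP replicate 1 (46.8) lay under AL replicate 2 (57.1), and LP replicate 1 (24.8) was close to ML. AL was below ALP by 1.95 on the log2 scale (adjusted p = 0.0275), a call lost without ALP replicate 3 (log2 -1.23, adjusted p = 0.0926). Gja4, which encodes Cx37 and is known from endothelium, reached 568 in ALP replicate 3, against 9.14 to 146 on the other arrays. The endothelial sum was 10021 on that array, against 1224 and 2492 on the other ALP arrays, although the gate was set to remove CD31+ cells, and the part of endothelial RNA in the value was not tested. On the brightest probe set of each, the other 7 connexins stayed at or below 152 on every array.

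Pannexins form channels of their own, and Panx1 and Panx2 were highest in MaSC. Panx1 read 1542, 2041 and 1461 in AL, against 498, 455 and 2065 in ALP, 4814, 5185 and 6084 in MaSC, 631, 857 and 524 in LP, with 211, 309 and 240 in ML. MaSC was above every other array, and ALP replicate 3 stood apart from its replicates. MaSC exceeded LP 8.13-fold (adjusted p = 0.000393) and ML 21.3-fold (adjusted p = 1.46e-05), and AL was 3.21-fold below MaSC but 6.65-fold above ML (adjusted p = 0.000373). AL against ALP did not pass for Panx1 (log2 1.10, adjusted p = 0.0746) but did without ALP replicate 3 (log2 1.80, adjusted p = 0.000165). Panx2 read 18.5, 24.0 and 12.4 in AL, against 78.7, 84.3 and 62.9 in ALP, 460, 379 and 566 in MaSC, 135, 116 and 129 in LP, with 171, 130 and 86.1 in ML. AL was thus the lowest population for Panx2, 26.2-fold below MaSC (adjusted p = 2.45e-07) and 7.17-fold below LP (adjusted p = 1.48e-05). Panx2 exceeded the array median only in the 3 MaSC arrays and 1 ML array, so these folds depend on the treatment of low signals. Panx3 did not pass the filter.

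**Figure D5:**
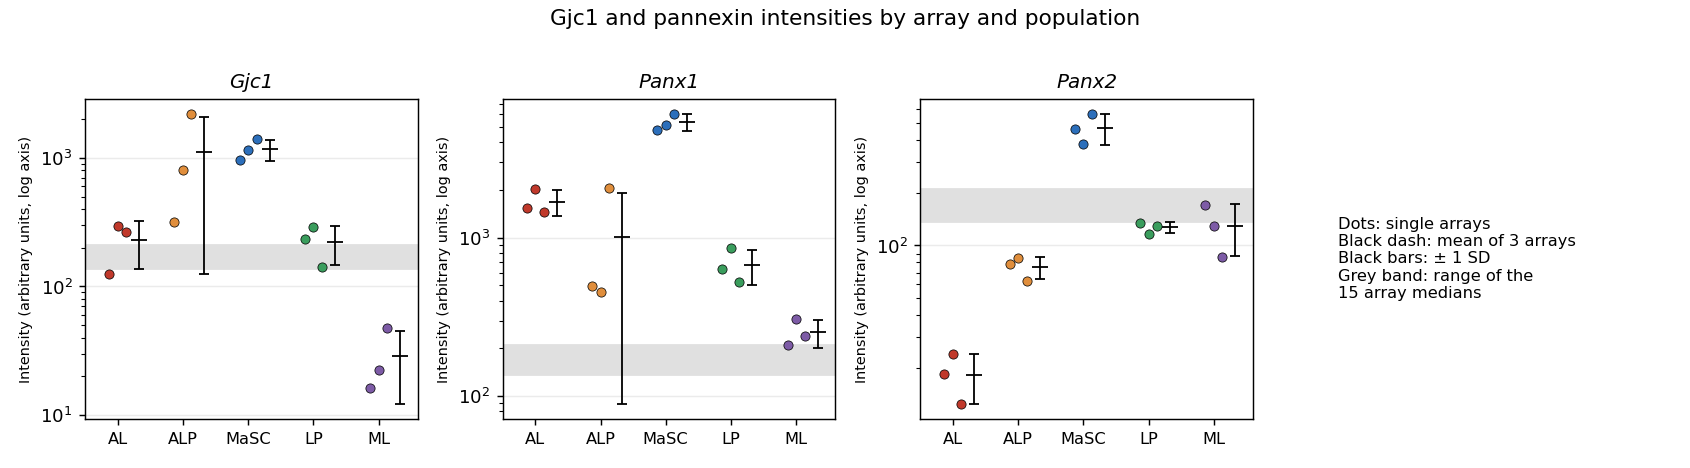
Intensity (arbitrary units, log axis) of Gjc1, Panx1 and Panx2 in each array by population, with the mean and SD of 3 arrays beside the dots. MaSC arrays were above all others for both pannexins, Gjc1 was lowest in ML, and ALP replicate 3 reached 2216 for Gjc1 and 2065 for Panx1.

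Of 14 genes listed as partners of connexins, which scaffold, phosphorylate or degrade them, 13 were measured and 11 passed in at least 1 of the 10 comparisons, where 91.5% of all genes did, so that this count is not a result about the partners. Tjp1, the ZO-1 scaffold, and Ctnnb1, which encodes beta-catenin, passed in none. Between AL and ALP 1 partner rose and 4 fell (39.9% of all genes passed), between AL and MaSC 1 rose and 6 fell (59.4%), between AL and LP 2 rose and 5 fell (45.5%), and between AL and ML 2 rose and 4 fell (53.5%). The median log2 difference of the 13 was -0.16, -0.19, -0.21 and -0.09 in these comparisons, beside -0.02, 0.05, -0.03 and 0.03 over all genes. Between MaSC and LP 5 were higher and 2 lower in MaSC (38.9% of all genes passed), between MaSC and ML 6 higher and 1 lower (59.5%), and between LP and ML 4 higher and 3 lower in LP (49%). ALP differed from MaSC, LP and ML in 3, 1 and 2 partners, where 38.4%, 7.54% and 36.7% of all genes passed. With arrays centred on their medians 5 rose and 4 fell between AL and ALP, 0 were higher and 7 lower in ALP against ML, 2 higher and 4 lower in MaSC against ML, and 0 higher and 3 lower in LP against ML. The calls of Ubqln4 for ALP against ML and Csnk1d for MaSC against ML then turned sign without passing (log2 -0.013 and -0.0022). Without ALP replicate 3, a setting added for these genes after their values were seen, 1 partner rose and 5 fell between AL and ALP, and ALP differed from MaSC, LP and ML in 6, 1 and 6. Of 12143 genes, 4937, 4365, 482 and 4987 passed in these 4 comparisons, in this order. Dbn1, the actin-binding drebrin, lost its call between AL and ALP (adjusted p = 0.0350, then 0.0868) and gained calls below MaSC and ML (0.00116 and 0.00581), and Cav1 gained one below ML (0.00302).

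Prkca, a kinase that phosphorylates Cx43, read 1970, 1478 and 1488 in AL, against 3957 to 4748 in ALP, 5092 to 5724 in MaSC, 4158 to 4939 in LP, with 2781 to 3313 in ML. On this probe set AL was below every other array, by 3.33-fold against MaSC (adjusted p = 1.14e-06 in limma). On the dimmer probe sets that also passed the filter, AL replicate 3 lay above all ML arrays. It read 1359 against 905 to 1136 on one, and 85.6 against 60.0 to 77.1 on the other, where ALP replicate 3 was at 79.9. Cav1, the caveolin that binds connexins in membrane rafts, read 1100, 1207 and 1098 in AL, against 3407 to 6682 in ALP, 6291 to 7764 in MaSC, 1892 to 2734 in LP, with 6099 to 6828 in ML. Here too AL was lowest, 6.33-fold below MaSC (adjusted p = 1.60e-06), and LP was the next lowest. Smurf2, a ubiquitin ligase, was 1.82-fold lower in AL than in LP (adjusted p = 7.51e-05), and Ubqln4, a shuttle to the proteasome, was 1.64-fold higher in MaSC than in ML (adjusted p = 3.03e-05).

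The genes most like each connexin over the 15 arrays were found by Pearson's correlation of log2 intensity, which is given as a description since the arrays share populations. Gjb6 was closest to Wdr59 (r = 0.964), Gnb1l (0.950) and Fam110b (0.949). Wdr59 averaged 1680 in AL, against 371 to 494 in the other populations. Gjb2 was closest to Prkaa2 (r = 0.992), Plb1 (0.989) and Timd2 (0.988), and Prkaa2, a catalytic subunit of AMP-activated kinase, averaged 3264 in AL, against 1684 in ALP, 514 in MaSC, 1820 in LP, with 442 in ML.

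Gja1 was closest to Dll1 (r = 0.973), a Notch ligand, Fzd1 (0.973), a Wnt receptor, and Hdgfl3 (0.971). Dll1 averaged 188 in AL, against 749 in ALP, 2591 in MaSC, 232 in LP, with 54.2 in ML. Gjb1 was closest to Ppl (r = 0.931), Vps37b (0.924) and Liph (0.916), and Gjb5 to Sphk1 (0.900), Bcar3 (0.893) and Arhgap42 (0.892). Liph averaged 4056 in LP, against 782 to 2228 in the other populations, and Sphk1, a sphingosine kinase, averaged 5412 in MaSC, against 824 to 2753 in the others.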

How the data were processed

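RNA of sorted cells was amplified and hybridised to 15 Affymetrix mouse whole-genome arrays. The deposited table holds linear intensity values per probe set, which the authors normalised with dChip, whose version, model and baseline array no source used here gives. Sample numbers of ALP are later than the others, so a batch confined to ALP cannot be told apart from that population.

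Of 45101 probe sets, 34945 carried 1 gene symbol. Probe sets above the array median on at least 3 arrays were kept, and the one with the highest mean log2 intensity stood for its gene. Gjb6 met this filter through 3 AL arrays and 1 MaSC array, and Gjb5 through 3 MaSC arrays and 1 ML array. Gjb1 met it through 2 LP arrays and 1 ALP array. Intensities under 1 were set to 1. All 15 arrays entered 1 linear model of population means (limma 3.58.1 under R 4.3.3, lmFit and eBayes), giving 10 two-sided pairwise comparisons, with Benjamini-Hochberg adjustment over 12143 genes and a threshold of 0.05. The script was tested on simulated data. The members, the lists of partners and markers, and the alternatives (16 added, median centring, quantile normalisation, no filter, mean of probe sets, 2-population fits, trend and robust fits, the methods' t-test, a replicate block, each replicate left out) were chosen with earlier results of these data known. The rule for named genes took all members, the other connexins and pannexins that passed the filter, the 4 partners with the largest moderated t, and the 3 genes most correlated with each member. Gja4 and the partners Tjp1, Ctnnb1, Dbn1 and Csnk1d were named outside this rule, after their values were seen. Upstream sequences came from RefSeq (GRCm38.p6). Figures were drawn with matplotlib 3.10.9.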

Additional observations from a re-analysis of the deposited data

How the results depend on the processing

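Of the 10 comparisons, the number of the 5 connexins that passed moved by more than 1.5 times in 5. With the methods' t-test after Benjamini-Hochberg adjustment it was 2 for AL against ML (4 in the fit of all arrays), 0 for ALP against MaSC (3), 3 for MaSC against LP (5) and 1 for MaSC against ML (2). With arrays centred on their medians it was 1 for ALP against ML (2). Leaving out 1 array at a time gave 2 to 3 for AL against ALP, 4 for AL against MaSC, 3 for AL against LP, 2 to 4 for AL against ML, 2 to 4 for ALP against MaSC, 0 for ALP against LP, 2 for ALP against ML, 5 for MaSC against LP, 2 to 3 for MaSC against ML and 2 to 3 for LP against ML, and the low value for AL against ML came without ML replicate 2. The cause of these changes was not tested.

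Among the 5 connexins the direction changed only in differences that had not passed. Of the partners, Ubqln4 and Csnk1d each turned in a comparison that had passed, as given above. With 16 added, Gjb1 for AL minus MaSC was -0.022 and Gjb6 for LP minus ML was 0.040 on the log2 scale. Over the fits without 1 array, Gjb1 ran from -0.85 to 0.91 for AL minus MaSC and from -1.59 to 0.17 for MaSC minus ML, Gjb2 from -0.32 to 0.10 for ALP minus LP, Gjb5 from -1.36 to 0.24 for AL minus LP and Gjb6 from -0.50 to 0.65 for LP minus ML. For the genes outside the 5 connexins, a fit without ALP replicate 3 was chosen after seeing the data. It turned Panx1 (-0.46) and Prkca (0.037) for ALP minus LP, and Ctnnb1 for AL minus ALP (-0.022) and ALP minus ML (0.0010), none of which passed either way.

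The labels do not say that a replicate number marks a shared suspension, so the numbers were not taken as pairs. Deviations of arrays with the same number correlated from -0.23 to 0.21 over 30 pairs. Over the 9 pairs within MaSC, LP and ML they correlated from -0.011 to 0.17. With a replicate block over all arrays 49 of the 50 member calls were the same and 1 was lost (Gja1, AL against ML, log2 0.25, adjusted p = 0.0556), and within MaSC, LP and ML all 15 were the same. The block gave 596 genes for ALP against LP, where 915 passed without it. That comparison was the least stable over all genes, with 4 in a fit of its arrays alone, 0 with the methods' t-test after adjustment and 2349 before, 1619 with median centring and 259 to 1984 without 1 array. Other counts moved past 1.5 times were AL against ALP (4849, 2832 with the adjusted t-test), ALP against ML (4452, then 7851 centred, 2739 in its own fit and 1293 with the adjusted t-test) and ALP against MaSC (4665, then 1349 and 168 in the last of these settings).

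Depth on arrays is signal over background. Gjb1, Gjb5, the virgin values of Gjb6, Panx2 outside MaSC and the ML values of Gjc1 lie near or under the array medians. Folds there depend on the constant added, and 3 arrays per population limit the precision.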
